A study of Homo sapiens with 16 samples.

Results

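The baseline transcriptomes of the lung cancer lines H460 and H1703 were compared in cells that received vehicle alone. The comparison rests on the 2 H460 and 2 H1703 libraries labelled as vehicle, which are 4 of the 16 libraries in the table, and it runs across all genes. The study exposed 4 human lines of non-small cell lung cancer to drugs directed at the transcription factor MYC and at the class IIa histone deacetylases, and called H460 and H1703 responsive and the other lines, HCC827 and H441, non-responsive. The cells described here as untreated had been given the solvent DMSO for 48 hours, starting 1 day after plating in RPMI medium with fetal bovine serum. The combination libraries, used below as a further set from the same lines, came from cells given 5 µM MYCi975, a MYC inhibitor, together with 25 µM TMP195, a class IIa deacetylase inhibitor, for the same time. The vehicle libraries of HCC827 and H441 are used to place levels and for counts set beside this comparison. All 16 libraries entered the fit that gave the SEs and p-values, and the genes tested were chosen by their mean over all 16. No genotype is given in the labels. Each line is 1 cell line, so every difference below is a difference of these lines and not of classes of tumour. Whether the libraries within a group were grown as separate cultures is not stated in the labels. The p-values measure only the spread between libraries of the same group. That spread was pooled over all 16 libraries, so the HCC827, H441 and combination libraries also entered it.

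H460 is widely used as a line with mutated STK11 and KEAP1. KEAP1 marks the transcription factor NRF2 (gene NFE2L2) for degradation, and cells that lose KEAP1 are known to keep NRF2 and its antioxidant target genes active. H1703 is known for extra copies of the receptor genes PDGFRA and FGFR1 and for loss of the chromatin remodeller SMARCA4. These are facts of general knowledge about the lines, and none of them was measured here.

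The vehicle libraries held 10971257 and 13461223 reads in the listed genes for H460, and 9914760 and 13604150 for H1703. Values are variance-stabilised read counts on a log2 scale, and a difference is H460 minus H1703 on that scale with its standard error (SE), so a positive value means more RNA in H460. Whole reads could be recovered from the deposited values, and normalised reads are these reads divided by a size factor per library. They are not scaled to gene length, so they are compared between libraries and not between genes. A gene is called when its adjusted p in the limma fit is under 0.05. Across genes, the 2 libraries of a line correlated at 0.980 in H460 and 0.985 in H1703, and libraries of different lines at 0.852 to 0.860; genes are not independent replicates. In RNA from whole cultures, fewer cells of a kind and less RNA per cell cannot be told apart.

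The lines differed widely, and neither had more called genes than the other by much. Of 23968 genes tested, 11127 were called (46.4%), with 5631 higher in H460 (23.5%) and 5496 higher in H1703 (22.9%). A difference of at least 1 on the log2 scale was called for 6454 genes (26.9%), again on both sides, with 3218 higher in H460 and 3236 higher in H1703. The median difference over all tested genes was 0 and the median absolute difference 0.65. Among protein-coding genes 59.7% of 14656 were called, against 31.1% of long intergenic non-coding RNAs. Of these protein-coding genes 4486 were higher in H460 and 4262 higher in H1703. The counts of the gene lists below are to be read beside these. The same count for HCC827 against H441, whose group means share no library with this comparison, was 10714 genes. Every comparison of H460 or H1703 with HCC827 or H441 called more genes, from 12047 to 12991, although these comparisons share vehicle libraries. Few calls rested on almost no reads: 349 calls (3.14%) came from genes with 10 or fewer reads over the 4 libraries.

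**Figure D1:**
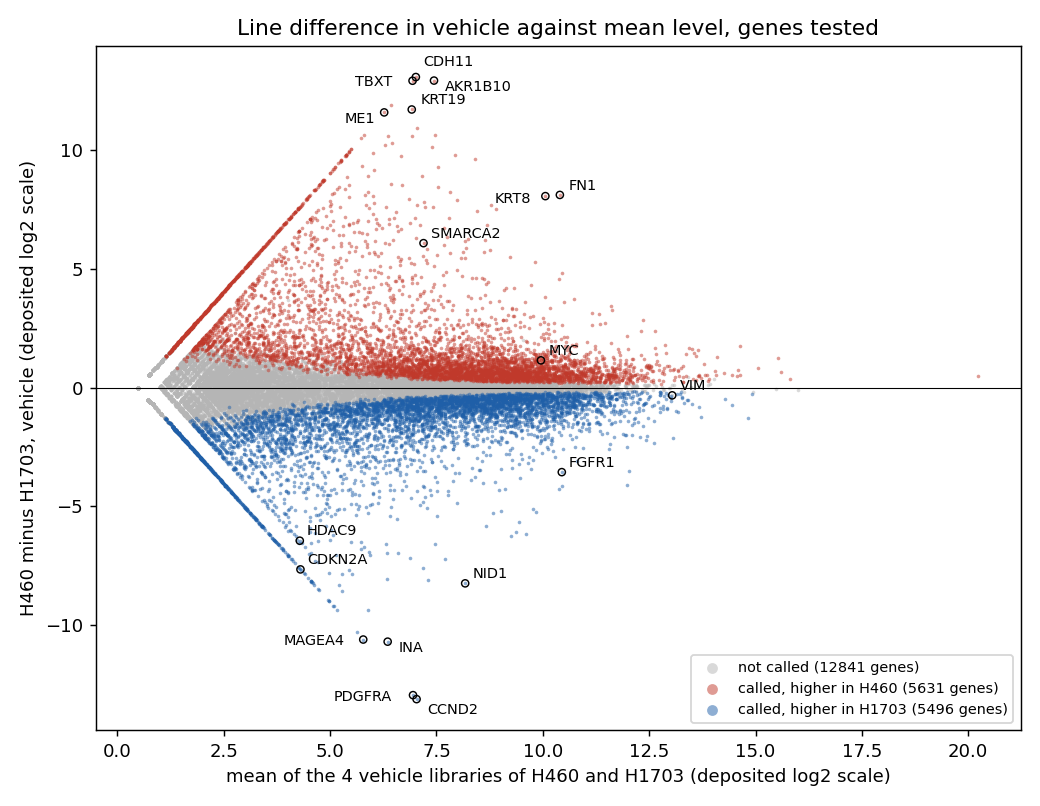
Difference between the lines (vertical axis, H460 minus H1703 on the deposited log2 scale) against the mean of the 4 vehicle libraries (horizontal axis, same scale) for each tested gene. Red points are the 5631 genes called higher in H460, blue points the 5496 called higher in H1703, and the straight diagonal edges are genes with 0 reads in all libraries of 1 line.

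Many genes were read in only 1 of the lines. In 120 genes, 100 of them protein-coding, both H1703 libraries had 0 reads while both H460 libraries had at least 100 normalised reads. The reverse held for 54 genes, 40 of them protein-coding. Genes without reads in the other line were 5 of the 14 protein-coding genes with the largest excess in H460 and 11 of the 14 in H1703. For them a fold change is a lower bound, computed as if the line without reads had had 3 reads over its 2 libraries.

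Among the protein-coding genes with the largest excess in H460 were an adhesion gene, a developmental transcription factor, secreted matrix proteins and several enzymes of detoxification. CDH11 encodes cadherin 11, a cell adhesion protein typical of mesenchymal cells (chr16:64943753-65126112, GRCh38). It had 11130 and 12957 normalised reads in the H460 libraries and 0 in both H1703 libraries, which made it at least 9933-fold higher in H460 (13.07 ± 0.29, SE). TBXT encodes brachyury, the transcription factor that specifies mesoderm and notochord. Its normalised reads were 10350 and 11232 in H460 and 0 in both H1703 libraries, at least 8867-fold higher, and it also had 0 reads in all vehicle libraries of HCC827 and H441. CDH11 was different in this respect, with 0 reads in HCC827 but 2766 and 2750 normalised reads in H441. SPP1, which encodes the secreted phosphoprotein osteopontin, had 5417 and 5179 normalised reads in H460 and 0 in H1703, at least 4324-fold higher. KRT19, a keratin of simple epithelia, had 6890 and 7105 in H460 and a single read in H1703, for a ratio of 17200 (95% counting interval 3087 to 679415). In each of these 4 genes the lowest H460 library was far above the highest H1703 library; libraries of the lines did not overlap in 70.7% of all tested genes, so the absence of overlap alone sets no gene apart.

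The other 10 genes of this group included TENT5A, a poly(A) polymerase, at 5577 and 6107 normalised reads in H460 and 0.974 and 0.701 in H1703. COL8A1, a collagen, had 5211 and 4346 in H460 against 0 and 4.20 in H1703. TGFBI, a secreted matrix protein induced by TGF-beta, had 6024 and 5219 against 0.974 and 5.60. AGR2, a disulfide isomerase of the endoplasmic reticulum, had 3003 and 3196 against 1.95 and 0. SRGN, the proteoglycan serglycin, had 2583 and 2827 against 0 and 1.40, and 0 reads in HCC827 and H441. AKR1B10, AKR1C3, ME1, ALDH3A1 and MGST1 complete the 14 genes, and all 5 encode enzymes of redox or xenobiotic metabolism. The largest adjusted p among the 14 was 1.67e-08 in the limma fit, and 5 of the 14 had 0 reads in both H1703 libraries.

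**Figure D2:**
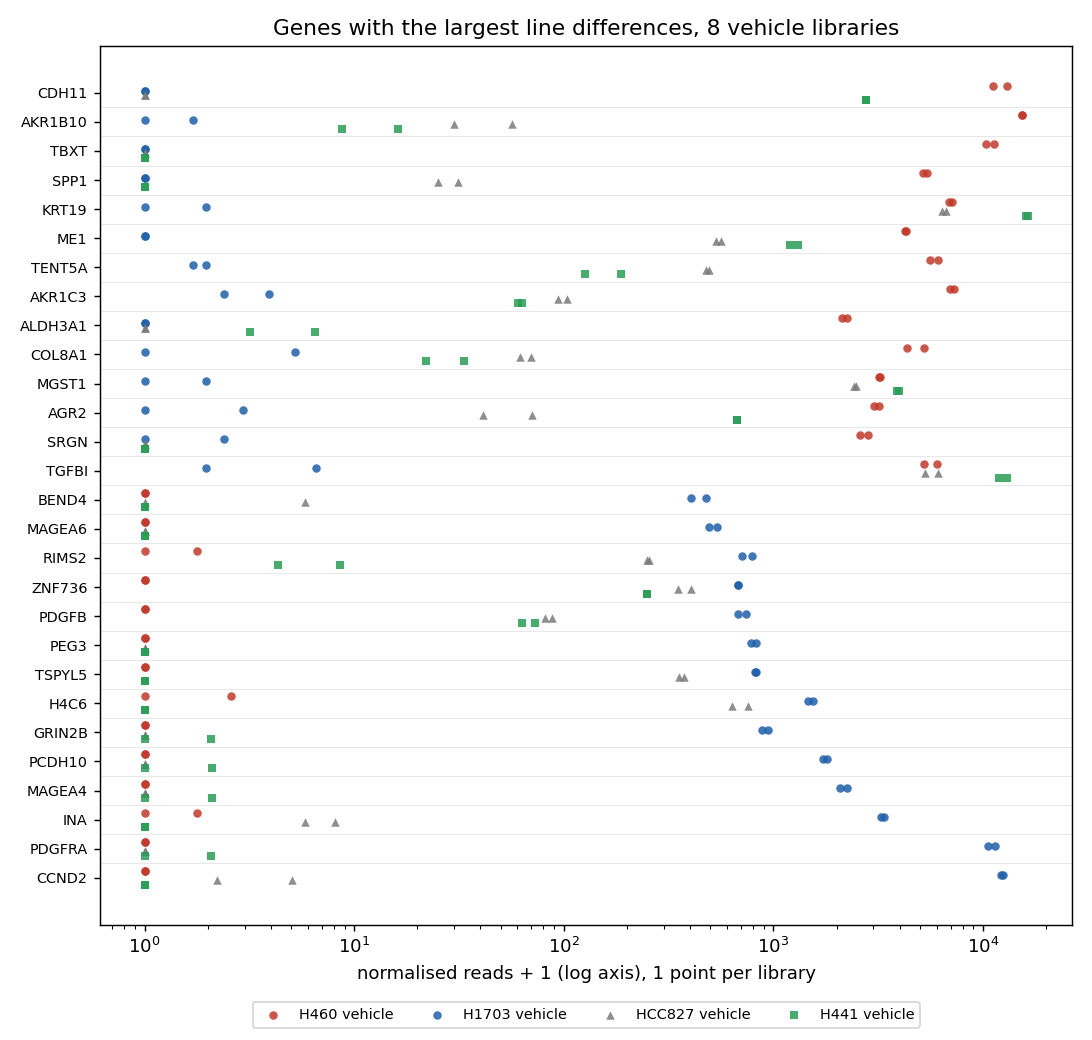
Normalised reads plus 1 (horizontal log axis) of the 14 genes highest in H460 and the 14 highest in H1703, 1 row per gene and 1 point per vehicle library of H460, H1703, HCC827 and H441. H460 and H1703 points are far apart in every row; for PDGFRA, 0 reads were found in both H460 libraries and 11368 and 10545 normalised reads in H1703.

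The genes with the largest excess in H1703 were a cell cycle regulator, a receptor and its ligand, neuronal genes and genes otherwise read mainly in the germline or from imprinted loci. CCND2 encodes cyclin D2, a partner of CDK4 and CDK6 at the entry into S phase (chr12:4273772-4305350). It had 0 reads in both H460 libraries and 12139 and 12461 normalised reads in H1703, at least 9424-fold higher in H1703 (-13.11 ± 0.45, SE). PDGFRA encodes a receptor tyrosine kinase for platelet-derived growth factors (chr4:54229097-54298247). Its normalised reads were 0 in both H460 libraries and 11368 and 10545 in H1703, at least 8325-fold higher (-12.94 ± 0.41, SE). PDGFB, which encodes a ligand of that receptor family, was in the same group, with 0 in both H460 libraries and 676 and 738 in H1703, at least 544-fold higher. None of these 3 genes overlapped between the lines, a trait shared by 70.7% of all tested genes.

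Neuronal genes in the group were INA, GRIN2B, RIMS2 and PCDH10. INA, the neurofilament protein alpha-internexin, had 0 and 0.787 normalised reads in H460 and 3258 and 3380 in H1703. GRIN2B, a subunit of the NMDA receptor, had 0 in H460 and 878 and 941 in H1703. PCDH10, a protocadherin best known from the brain, had 0 in H460 and 1804 and 1714 in H1703. The cancer testis gene MAGEA4 had 0 in H460 and 2242 and 2081 in H1703, and its near copy MAGEA6 had 0 against 537 and 491. The paternally expressed gene PEG3 had 0 in H460 and 777 and 825 in H1703. TSPYL5, ZNF736 and BEND4 also had 0 reads in H460, and the histone gene H4C6 and RIMS2 had 2 reads or fewer. The largest adjusted p among the 14 genes was 6.41e-09 (limma). Of these 14, 9 had a mean under 10 normalised reads in the vehicle libraries of HCC827 and also in those of H441, against 3 of the 14 genes highest in H460. Reads of near-identical copies, here MAGEA6, H4C6 and the AKR1C genes, may have been shared between copies when they were counted.

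NRF2 target genes were mostly higher in H460. NRF2 binds antioxidant response elements and drives genes of glutathione synthesis, NADPH supply and the reduction of aldehydes, ketones and quinones. Of 39 tested genes in a list of its known targets, 32 were higher in H460, 3 were higher in H1703 and 4 were not called, with a median difference of 1.86 against 0 over all genes. The summed normalised reads of the list were 153126 and 158064 in the H460 libraries and 62515 and 63449 in the H1703 libraries. To show the element behind the list, the 250 bases before the RefSeq gene start (GRCh38.p14) are printed for ME1, the target with the largest difference among those that hold the core TGACNNNGC, for PGD, of intermediate difference, and for TXNRD1, which was not called. The windows are chr6:83431052-83431301 on the minus strand for ME1, chr1:10398814-10399063 on the plus strand for PGD, and chr12:104215529-104215778 on the plus strand for TXNRD1. Each is written 5′ to 3′ on the gene's strand, with the match to the core on either strand in capitals.
ME1: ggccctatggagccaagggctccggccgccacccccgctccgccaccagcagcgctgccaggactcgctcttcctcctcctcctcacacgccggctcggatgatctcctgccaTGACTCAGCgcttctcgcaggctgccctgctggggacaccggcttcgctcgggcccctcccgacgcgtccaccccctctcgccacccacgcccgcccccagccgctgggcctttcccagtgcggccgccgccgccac
PGD: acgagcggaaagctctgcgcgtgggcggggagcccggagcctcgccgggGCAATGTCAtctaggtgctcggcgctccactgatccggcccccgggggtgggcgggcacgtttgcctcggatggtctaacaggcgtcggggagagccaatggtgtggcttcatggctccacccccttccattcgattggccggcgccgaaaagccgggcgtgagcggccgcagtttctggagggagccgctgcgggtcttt
TXNRD1: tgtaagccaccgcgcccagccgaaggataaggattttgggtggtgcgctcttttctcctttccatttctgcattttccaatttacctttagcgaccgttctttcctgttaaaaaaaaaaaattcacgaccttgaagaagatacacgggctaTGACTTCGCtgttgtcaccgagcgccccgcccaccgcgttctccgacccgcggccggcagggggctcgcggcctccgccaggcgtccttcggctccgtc
Promoters were matched by symbol for 28 of the list's genes, and the core was found in 7 of these windows (25%), GCLM, TXNRD1, GPX2, PGD, ME1, CBR1 and CYP4F11. It was found in 11% of all 27305 promoter windows and in 12% of those of 13261 tested genes. A match is only a match of letters.

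Aldo-keto reductases, malic enzyme and an aldehyde dehydrogenase were among the NRF2 targets with the largest differences. AKR1B10, an aldo-keto reductase (chr7:134527592-134541408), had 15380 and 15275 normalised reads in H460 and 0 and 0.701 in H1703, a ratio of 37602 (95% counting interval 6748 to 1485240). AKR1C3 had 6919 and 7231 in H460 and 2.92 and 1.40 in H1703, and AKR1C1 and AKR1C2 were 178-fold and 257-fold higher in H460. ALDH3A1, an aldehyde dehydrogenase, had 2245 and 2121 in H460 and 0 in H1703. Enzymes that supply NADPH were higher in H460 as well. ME1, cytosolic malic enzyme, had 4257 and 4300 in H460 and 0 in both H1703 libraries, at least 3502-fold higher (11.58 ± 0.12, SE). PGD, an enzyme of the pentose phosphate pathway, had 11256 and 11849 against 2235 and 2212, 5.21-fold higher. The conjugate exporters ABCC2 and ABCC3 were 472-fold and 243-fold higher in H460. In all of these genes the libraries of the 2 lines did not overlap, as in 70.7% of all tested genes.

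The exceptions in the list were few. HMOX1, which encodes the haem-degrading enzyme heme oxygenase 1, went the other way, with 252 and 137 normalised reads in H460 and 2572 and 2675 in H1703, 14-fold higher in H1703 (-3.80 ± 0.25, SE). The ferritin heavy chain FTH1 and the autophagy receptor SQSTM1 were also called higher in H1703, with differences of -0.36 and -0.32. TXNRD1, GPX2, MAFG and PIR were not called. TXNRD1, a thioredoxin reductase whose promoter window is printed above, differed by 0.09, and under quantile normalisation its value turned to -0.40 and was called higher in H1703. The call of FTH1 was lost without H460 replicate 2 (adjusted p = 0.0838) and without H1703 replicate 1 (adjusted p = 0.0806). Transcripts of the regulators themselves differed little: NFE2L2 was 0.31 ± 0.09 higher in H460 (adjusted p = 0.00553, limma). KEAP1 had 464 and 429 normalised reads in H460 and 295 and 338 in H1703 (0.50 ± 0.14, SE, adjusted p = 0.00692, limma). That call was lost without H460 replicate 1 (adjusted p = 0.0593) and without H1703 replicate 1 (adjusted p = 0.0864).

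Receptor tyrosine kinases, the cell surface receptors that relay growth factor signals, were more often higher in H1703. Of 39 tested, 21 were higher in H1703 and 10 in H460, with a median difference of -1.12 (-1.05 with genes lacking reads in a line set at their bound). A stricter filter, which tests only genes with a mean at least 3 above the lowest value of the table, kept 26 of them, with 16 higher in H1703 and 6 in H460. FGFR1 had 396 and 413 normalised reads in H460 and 4658 and 4907 in H1703, 11.8-fold higher in H1703 (-3.55 ± 0.13, SE). ROR2, a receptor for Wnt ligands, had 0.978 and 0 in H460 against 91.5 and 82.0 in H1703. On the side of H460 stood ephrin receptors: EPHA5 had 934 and 992 in H460 and 0 in H1703, at least 790-fold higher, and EPHA3 had 101 and 108 against 0, at least 85.6-fold higher. AXL, the GAS6 receptor, had 251 and 275 in H460 against 1.95 and 7.01 in H1703, 54.0-fold higher. All 5 of these receptors were without overlap between lines, as were 70.7% of all tested genes.

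The 41 tested ligands of these receptors were split, with 12 higher in H460, 11 higher in H1703 and 18 not called. Thus 56.1% were called, near the 59.7% of all protein-coding genes. PDGFC, a ligand of PDGFRA, had 150 and 148 normalised reads in H460 and 5523 and 5735 in H1703, 38.0-fold higher in H1703, so both PDGFB and PDGFC were higher in the line that had PDGFRA reads. FGF5, a ligand of FGF receptors, had 0 in H460 and 234 and 288 in H1703, at least 203-fold higher. EGF had 266 and 266 in H460 and 0 and 0.701 in H1703. Genes induced by ERK, a kinase downstream of these receptors, leaned to H460: of 19 tested, 11 were higher in H460 and 4 in H1703, with a median of 0.73. The ERK phosphatase DUSP4 had 1653 and 2129 in H460 against 8.77 and 4.90 in H1703, and the ETS factors ETV1 and ETV4 were 121-fold and 21.6-fold higher in H460. SPRY1, an inhibitor of receptor signalling, was among the exceptions, with 0 and 4.72 in H460 and 31.2 and 26.6 in H1703, and SPRY2 was 10.2-fold higher in H460.

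Among 38 lung cancer driver and suppressor genes, 19 were higher in H460, 14 were higher in H1703 and 5 were not called. CDKN2A encodes the cell cycle inhibitor p16 (chr9:21967753-21995301). It had 0 reads in both H460 libraries and 305 and 252 normalised reads in H1703, at least 209-fold higher in H1703. Its neighbours CDKN2B and CDKN2B-AS1 had 0 reads in H460 too, with 64.3 and 63.8 and with 84.7 and 86.9 in H1703, whereas MTAP, the adjoining metabolic gene, had 1217 and 1335 in H460 and 736 and 829 in H1703. The other 7 tested genes of this 10-gene neighbourhood, MTAP included, were all called higher in H460. Sense and antisense transcripts at this locus can be told apart only if reads were counted by strand, and the sources used here do not give that setting.

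STK11, a kinase gene and lung tumour suppressor, was 2.37-fold higher in H1703, at 309 and 308 normalised reads in H460 against 765 and 703. CDKN1A, the cell cycle inhibitor p21, had 448 and 246 in H460 and 45.8 and 55.3 in H1703, and PHLDA3, an AKT inhibitor, had 227 and 127 against 0 in H1703, at least 140-fold higher. The death receptor gene EDA2R had 228 and 186 in H460 and 0 and 0.701 in H1703.

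SMARCA4, an ATPase of SWI/SNF chromatin remodelling complexes, was read in both lines, with 3417 and 3505 normalised reads in H460 and 1378 and 1246 in H1703, 2.66-fold higher in H460 (1.40 ± 0.09, SE). Its paralogue SMARCA2 (chr9:1980290-2193624), the alternative ATPase of these complexes, had 1125 and 1289 in H460 and 15.6 and 14.7 in H1703, 80.7-fold higher in H460 (6.08 ± 0.12, SE). Over all 28 tested subunits, 9 were higher in each line and 10 were not called. BRD9, a subunit of the non-canonical complex, was 3.20-fold higher in H1703.

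**Figure D3:**
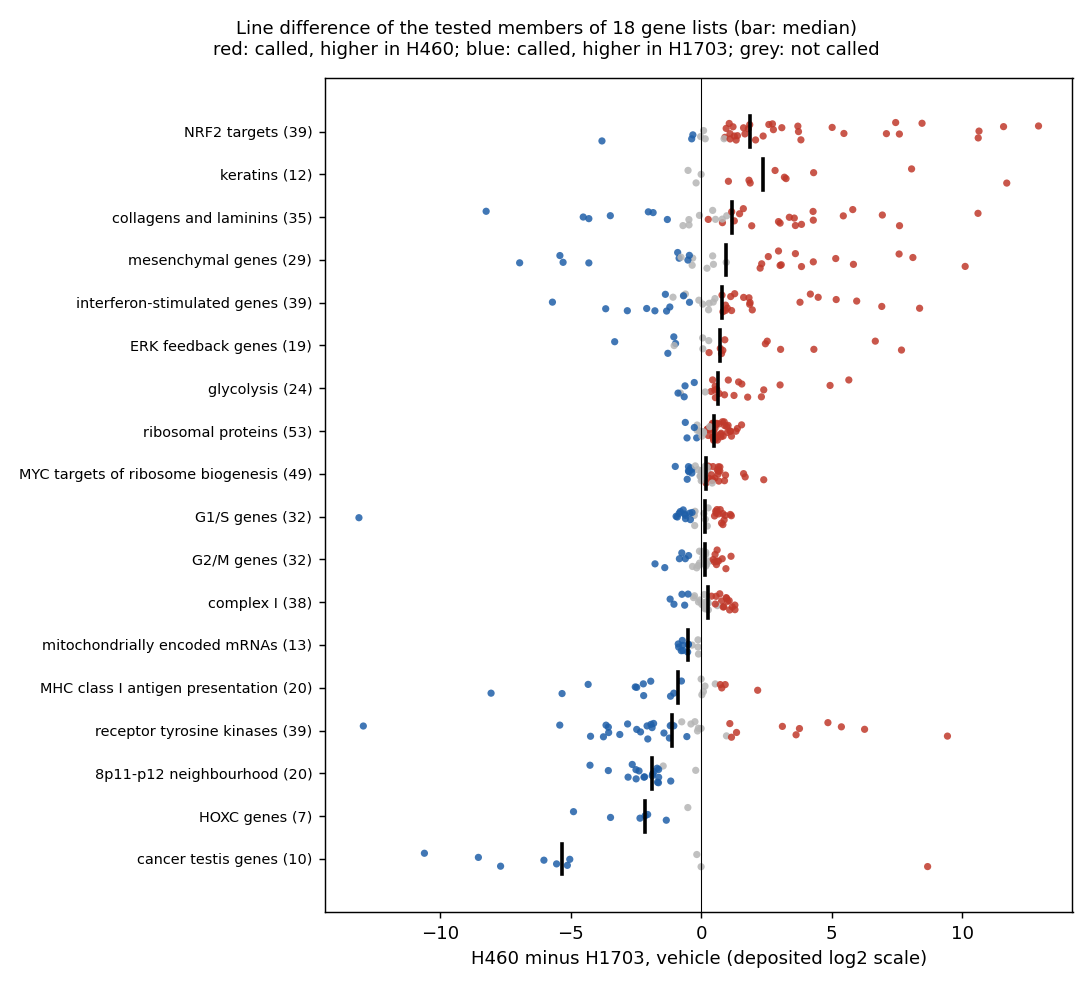
Line difference (horizontal axis, H460 minus H1703 in vehicle, deposited log2 scale) of the tested members of 18 gene lists, 1 point per gene and a black bar at the median. Red points are called higher in H460, blue points called higher in H1703 and grey points not called; medians run from 2.36 for keratins to -5.33 for cancer testis genes.

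Epithelial and mesenchymal genes did not sort the lines onto 2 sides, since each line had genes of both kinds. Keratins were more often higher in H460: of 12 tested keratins 9 were higher in H460, 0 were higher in H1703 and 3 were not called, with a median of 2.36 (2.24 with genes lacking reads in a line set at their bound). The count of 0 came from limma, was also 0 at an unadjusted p under 0.05 and was 0 by voom. KRT8 had 17108 and 17790 normalised reads in H460 and 56.5 and 69.4 in H1703, and its partner KRT18 had 3722 and 3776 against 195 and 179. Junction genes did not follow. The adhesion protein gene CDH1 (E-cadherin) had 0 and 0.787 in H460 and 6.82 and 9.11 in H1703, and the tight junction gene OCLN had 0.978 and 4.72 against 445 and 408. EPCAM, a defining marker of carcinoma epithelium, was close to 0 in both lines, at 8.80 and 5.51 in H460 and 1.95 and 0 in H1703. Of 30 tested epithelial genes, 13 were higher in H460, 6 were higher in H1703 and 11 were not called, with a median of 0.09 (0.35 with the stricter filter). The first of these counts fell to 8 when only the 4 libraries compared entered the fit. Summed normalised reads of the list went the other way, at 707 to 752 in the H460 libraries and 1380 to 1399 in the H1703 libraries.

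Mesenchymal genes were also divided, with 14 of 29 higher in H460, 8 higher in H1703 and a median of 0.96 (0.47 with the stricter filter). FN1 (fibronectin) had 21993 and 22984 normalised reads in H460 and 80.8 and 76.4 in H1703, 288-fold higher in H460 (8.11 ± 0.11, SE). SNAI2, a transcription factor of epithelial-mesenchymal transition, had 132 and 91.2 in H460 and 0 and 0.701 in H1703. The opposite was found for another such factor, TWIST1, with 0 in H460 and 47.7 and 56.0 in H1703, at least 40.2-fold higher in H1703. N-cadherin, CDH2, had 3.91 and 1.57 in H460 and 212 and 205 in H1703, and THY1 was 188-fold higher in H1703. VIM (vimentin) was high in both lines, at 7046 and 8061 against 8872 and 10015, and was not called (adjusted p = 0.451, limma). It passed the threshold when only the 4 libraries compared were fitted (adjusted p = 0.0383) and when the 8 vehicle libraries were (adjusted p = 0.0296).

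Matrix and adhesion genes showed exchanges within families. Of 35 tested collagens and laminins, 20 were higher in H460 and 7 in H1703, with a median of 1.17. NID1 (nidogen 1), a linker of basement membranes, had 9.78 and 19.7 normalised reads in H460 and 5326 and 4721 in H1703, whereas NID2 had 1366 and 1243 in H460 and 4.87 and 12.6 in H1703. COL6A1 and COL6A2 encode chains of the same collagen and lie next to each other on chromosome 21. COL6A1 was 21.5-fold higher in H460 and COL6A2 21.1-fold higher in H1703. Cadherins were mixed in the same way, with 7 of 24 higher in H460 and 10 in H1703 (5 and 6 of the 13 kept by the stricter filter). Beside CDH11, the H460 libraries had CDH13 at 449 and 427 and CDH10 at 186 and 189, with 1 read or fewer in H1703. Of 19 integrins, 5 were higher in H460 and 6 in H1703, so 57.9% were called, near the 59.7% of all protein-coding genes. ITGA3 had 111 and 123 in H460 and 1789 and 1939 in H1703, and ITGB8 had 486 and 463 against 3.90 and 5.60. Without H1703 replicate 1 only 3 integrins were called higher in H460.

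Defining markers of lung lineages were low in both lines, and lists of lineage genes were mixed. NKX2-1, which defines lung adenocarcinoma, had 0 reads in both H460 libraries and 5.84 and 1.40 normalised reads in H1703. Of 20 tested alveolar and adenocarcinoma genes, 3 were higher in H460, 6 were higher in H1703 and 11 were not called. The squamous marker TP63 had 0 reads in H460 and 1 and 3 reads in H1703. SOX2, a stem cell factor often high in squamous tumours, had 1.96 and 3.15 normalised reads in H460 and 178 and 198 in H1703, 72.4-fold higher in H1703. Over the 14 tested genes of the squamous list, 8 were higher in H460, 3 were higher in H1703 and 3 were not called, with a median of 1.52. One of the 8, the serpin SERPINB5, had 737 and 738 in H460 and 0 in H1703, at least 603-fold higher. Of 26 neuroendocrine and neuronal genes 11 were higher in H460, 7 were higher in H1703 and 8 were not called, with a median of 0.55. With the stricter filter, which kept 10 of them, 2 were higher in H460 and 4 in H1703, with a median of 0.002. Neurofilament genes parted between the lines: NEFL had 1984 and 1985 in H460 and 0.974 and 0 in H1703, the reverse of INA. NCAM1, a neural adhesion molecule, had 551 and 653 in H460 and 0 in H1703. Of markers of other cells that a culture could hold, the endothelial genes PECAM1 and VWF had 0 reads in all 4 libraries. Reads were found in a list of genes of other cell types: of 10 with values, 2 had 0 reads in H460 and 4 in H1703. Its summed normalised reads were 88.1 to 97.8 in the H460 libraries and 72.1 to 112.8 in the H1703 libraries. Of its 7 tested genes, 0 were called by limma, with 0 at an unadjusted p under 0.05. By voom 1 of them was called higher in H1703, and without H460 replicate 1 limma called 1 higher in H460.

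HOX genes, which keep positional identity, differed by cluster. In the HOXA cluster 6 of 11 tested genes were higher in H460 and 2 were higher in H1703. The count of 2 was 1 without either H460 library and 0 without either H1703 library, and the stricter filter kept 3 of the 11 genes, with 0 called by limma and 0 at an unadjusted p under 0.05. By voom, without that filter, 8 of the 11 were higher in H460 and 2 in H1703. Among the genes higher in H460 were HOXA9 with 88.0 and 48.0 normalised reads in H460 and 0 in H1703, and HOXA10 with 71.4 and 80.2 against 0. In the HOXB cluster 4 of 9 were higher in H460 and 1 in H1703, and HOXB7 had 532 and 488 against 0, at least 415-fold higher. The HOXC cluster was opposite, with 6 of 7 higher in H1703 and 0 in H460 by limma, 0 also at an unadjusted p under 0.05 and by voom. HOXC8 had 92.9 and 127 in H460 and 1288 and 1176 in H1703, and HOXC10 had 6.85 and 11.8 against 347 and 339. In the HOXD cluster, HOXD9 had 0 in H460 and 63.3 and 36.4 in H1703.

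Cancer testis genes, normally limited to germ cells, leaned to H1703, with 7 of 10 tested higher in H1703 and a median of -5.33 (-5.38 with genes lacking reads in a line set at their bound). DDX43 had 0.978 and 0.787 normalised reads in H460 and 651 and 588 in H1703, and CT45A1, which has near copies, had 0.978 and 0 against 134 and 132. The exception was MAGEB2, with 584 and 551 in H460 and 0 in H1703, at least 463-fold higher in H460. PRAME and MAGEA1 were not called. The stricter filter kept 5 of the 10 genes, of which 2 were higher in H1703 and 1 in H460, with a median of -0.17. Among 16 imprinted genes 6 were higher in H460, 4 were higher in H1703 and 6 were not called; MEST was 68.3-fold higher in H460, at 454 and 488 against 6.82 and 7.01.

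Antigen presentation and interferon genes pointed in different directions. Of 20 tested genes of MHC class I presentation, 11 were higher in H1703 and 4 in H460, with a median of -0.90. The summed normalised reads of the list went the other way, at 56762 to 57338 in the H460 libraries and 44881 to 45992 in the H1703 libraries. HLA-C had 5.87 and 0.787 normalised reads in H460 and 1300 and 1310 in H1703, and HLA-B had 3.91 and 2.36 against 206 and 230. Reads of these polymorphic genes depend on how close a line's alleles are to the reference genome, and its part in the result was not tested. PSMB9, an immunoproteasome subunit, had 27.4 and 29.1 in H460 and 192 and 160 in H1703, and IRF1, an inducer of these genes, was 5.64-fold higher in H1703. Of 39 interferon-stimulated genes, 20 were higher in H460 and 10 in H1703. OAS1, a sensor of double-stranded RNA, had 723 and 776 in H460 and 4.87 and 2.80 in H1703, and IFI44L had 449 and 467 against 0. XAF1 was opposite, with 0 in H460 and 59.4 and 81.3 in H1703.

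The 5 largest differences among 30 NF-kB targets and cytokines were those of secreted cytokines higher in H460, although the list as a whole was even, with 13 higher in H460 and 11 in H1703. The neutrophil chemokines CXCL5, CXCL1 and CXCL2 had 1326 and 1199, 3118 and 2231, and 312 and 260 normalised reads in H460. In H1703 they had 0 in both libraries, 21.4 and 11.9, and 0 and 0.701. IL6 had 209 and 239 in H460 and 1.95 and 0 in H1703. CXCL8 had 1094 and 1349 against 0, at least 1010-fold higher, and was not called by voom (adjusted p = 0.0787).

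The intended targets of the study's drugs were present at different levels in the 2 lines. MYC had 1548 and 1410 normalised reads in H460 and 663 and 665 in H1703, 2.21-fold higher in H460 (1.15 ± 0.11, SE). HDAC4 had 997 and 944 in H460 and 361 and 415 in H1703, 2.47-fold higher in H460 (1.32 ± 0.12, SE). HDAC7 was 1.88-fold higher in H460, at 624 and 665 against 403 and 301. HDAC5 was the reverse, with 92.9 and 89.7 in H460 and 400 and 376 in H1703, 4.23-fold higher in H1703 (-2.05 ± 0.12, SE). HDAC9 had 0.978 and 0 in H460 and 170 and 188 in H1703, a ratio of 415 (95% counting interval 74.1 to 16426). Thus each line had more RNA of 2 of the 4 class IIa deacetylases. These enzymes restrain the MEF2 transcription factors. Of 14 tested genes in a list of class IIa deacetylases, MEF2 factors and their targets, the 4 deacetylases included, 9 were higher in H460, 4 were higher in H1703 and 1 was not called. Among the targets in the list NR4A2 was 36.7-fold, NR4A3 41.0-fold and KLF4 95-fold higher in H460.

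Genes that MYC is known to drive differed in both directions, most of them by small amounts. Of 49 tested MYC targets, most of them genes of ribosome biogenesis, 21 were higher in H460 and 8 higher in H1703. The other 20 were not called, and the median was 0.19. In this list 59.2% were called, near the 59.7% of all protein-coding genes. The largest differences in the list were not those of ribosome genes: LDHA, lactate dehydrogenase of glycolysis, was at 14809 and 14368 normalised reads in H460 and 2824 and 2708 in H1703, and the mitochondrial chaperone HSPD1 was 3.05-fold higher in H460. Ribosomal protein genes shifted by small steps, with 40 of 53 higher in H460, 4 higher in H1703 and a median of 0.51; RPLP2 was 2.96-fold higher. The count of 4 was 2 without H460 replicate 2 and 2 without H1703 replicate 2. Of 12 tested genes of the MYC network, 6 were higher in H460, 1 was higher in H1703 and 5 were not called. The 1 was MYCL, at a low level, with 0 and 0.787 in H460 and 11.7 and 12.6 in H1703, and MAX, the partner of MYC, was 1.38-fold higher in H460.

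Mitochondrially encoded mRNAs leaned to H1703, while nuclear genes of the respiratory complexes had medians a little above 0. Of 13 mRNAs encoded in mitochondrial DNA, 9 were higher in H1703 and 0 in H460, with a median of -0.52; the count of 0 came from limma and was 0 at an unadjusted p under 0.05 and by voom. MT-CYB had 4139 and 3155 normalised reads in H460 and 7209 and 5970 in H1703. The count of 9 was 4 without H460 replicate 2, with a median of -0.29, and 4 without H1703 replicate 1, with a median of -0.43. Of 38 nuclear genes for complex I, 15 were higher in H460 and 5 higher in H1703, with a median of 0.25. In this list 52.6% were called, fewer than the 59.7% of all protein-coding genes. The count of 5 was 3 without H460 replicate 1, and the median was 0.38 without H1703 replicate 2. For complexes II to V the counts were 17 and 4 of 40, and 52.5% were called. The ATP synthase subunit gene ATP5MC3 was 3.22-fold higher in H460, at 1047 and 1083 against 322 and 338, while SDHA, a subunit of complex II, was 2.53-fold higher in H1703.

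Glycolysis genes were mostly higher in H460, with 18 of 24 higher, 4 higher in H1703 and a median of 0.65. The glucose transporter SLC2A1 had 1545 and 1687 normalised reads in H460 and 29.2 and 29.4 in H1703, 55.3-fold higher. The lactate exporter SLC16A3 had 1434 and 1352 against 45.8 and 39.9. Of 28 tested genes of serine, one-carbon and amino acid supply, 12 were higher in H460, 8 were higher in H1703 and 8 were not called, with a median of 0.18. The count of 8 higher in H1703 was 5 without H460 replicate 1, and the median was 0.10 without H460 replicate 2. Among the 12 was CPS1, carbamoyl phosphate synthetase of the urea cycle, which had 9745 and 9310 in H460 and 6.82 and 13.3 in H1703, 897-fold higher. ASS1, argininosuccinate synthase, had 721 and 500 in H460 and 0 in H1703, and the aminotransferase BCAT1 had 1198 and 1203 against 0, at least 982-fold higher. PSPH, the last enzyme of serine synthesis, was 4.72-fold higher in H1703.

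Cell cycle genes gave no common direction apart from CCND2. Of 32 G1/S genes 13 were higher in H460 and 12 in H1703, and of 32 G2/M genes 10 and 6. The shares called were 78.1% and 50%, against 59.7% of all protein-coding genes. FOXM1, a transcription factor of G2/M genes, was 3.43-fold higher in H1703, and AURKA, a mitotic kinase, was 2.20-fold higher in H460. Genes of drug efflux and metabolism were more often higher in H460, with 14 of 25 higher and 7 higher in H1703. Their summed normalised reads went the other way, at 14935 to 15964 in the H460 libraries and 19594 to 21258 in the H1703 libraries. The efflux pump ABCG2 had 544 and 487 normalised reads in H460 and 0 in both H1703 libraries, at least 419-fold higher. Genes of caveolae and the actin cytoskeleton leaned to H1703, with 14 of 27 higher there and 8 higher in H460. CAV1 was 4.01-fold higher in H1703, yet CAVIN2, another caveolar gene, had 1282 and 1658 in H460 and 0 in H1703.

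Differences also ran along chromosomes. Protein-coding genes were placed in 575 windows of about 25 neighbouring tested genes, whose median differences had a 5th percentile of -0.81 and a 95th percentile of 0.72. The lowest was a window on chromosome 8 from ADGRA2 to KAT6A (37784191 to 42052026), with a median of -1.74 and 18 of 26 genes higher in H1703 against 1 in H460. It holds FGFR1 and TACC1, the latter with 283 and 324 normalised reads in H460 and 5825 and 5847 in H1703. Of 20 tested genes of a list for that neighbourhood, 18 were higher in H1703 and 0 in H460 (limma; 0 also at an unadjusted p under 0.05 and by voom). NSD3, a histone methyltransferase gene beside FGFR1, was 5.63-fold higher in H1703. Around PDGFRA on chromosome 4 the neighbours differed by far less than PDGFRA: 7 of 13 genes were higher in H1703 and 0 in H460 by limma, again 0 without adjustment and by voom, with a median of -0.37 that was -0.67 without H1703 replicate 1 and -0.25 without H460 replicate 1. CHIC2 and FIP1L1 were 2.35-fold and 2.18-fold higher in H1703.

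The next lowest windows lay on chromosome 12 from MANSC1 to ARHGDIB (12326056 to 14961728, median -1.55) and on chromosome 7 from CCDC201 to ZNF736 (45859994 to 64354860, median -1.54). The chromosome 12 window held GRIN2B and PLBD1, which had 8.80 and 7.08 normalised reads in H460 and 2052 and 2008 in H1703, but also GPRC5A, with 829 and 1321 in H460 and 1.95 and 1.40 in H1703. The highest window was on chromosome 2 from CUL3 to C2orf72 (224470150 to 231049719), with a median of 2.09 and 20 of 25 genes higher in H460 against 1 in H1703. It held DNER, a Notch ligand gene, at 974 and 890 in H460 and 0 and 5.60 in H1703. Of whole chromosomes, the lowest median was that of chromosome 18 (-0.61, with 115 of 205 genes higher in H1703 and 42 in H460) and the highest that of chromosome 14 (0.42, with 245 of 478 higher in H460 and 65 in H1703). Copy number was not measured.

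**Figure D4:**
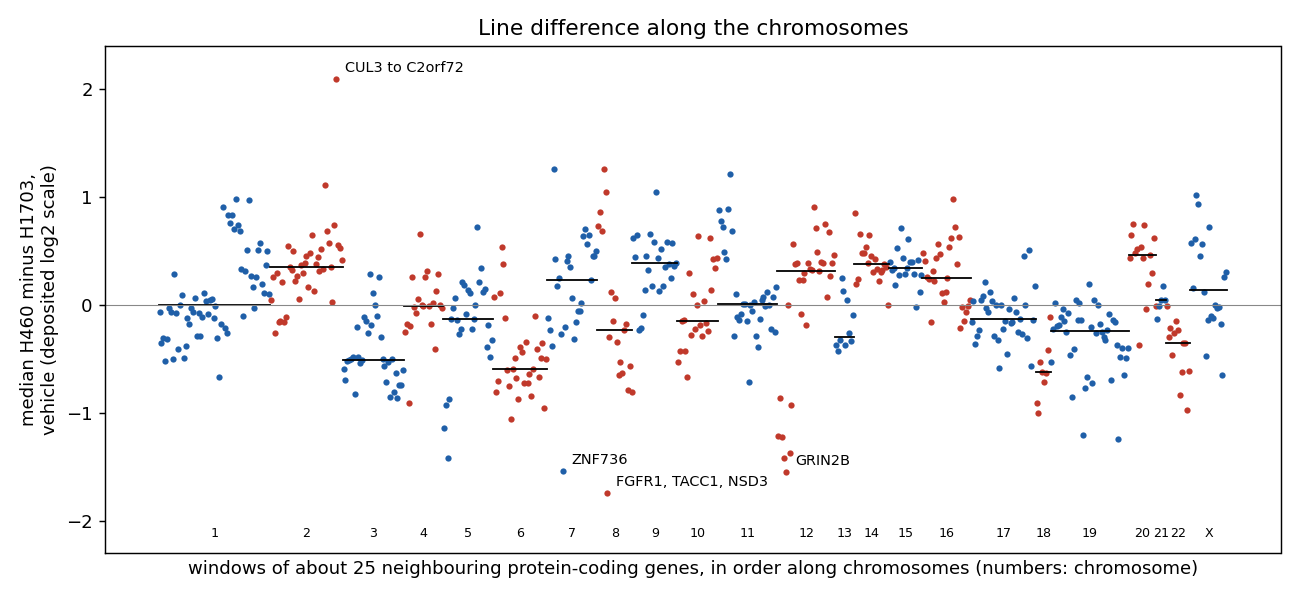
Median line difference (vertical axis, H460 minus H1703 in vehicle, deposited log2 scale) of each of 575 windows of neighbouring tested protein-coding genes, in order along the chromosomes (horizontal axis), with colours alternating by chromosome and a black bar at the median of a chromosome's windows. The window from ADGRA2 to KAT6A on chromosome 8 lies lowest at -1.74 and that from CUL3 to C2orf72 on chromosome 2 highest at 2.09.

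The line difference was measured again in the combination libraries. None of them enters the vehicle means, although the same fit gave the spread for both. There 12574 of 23968 genes were called (52.5%), with 6335 higher in H460 (26.4%) and 6239 higher in H1703 (26.0%). Of the 11127 genes called in vehicle, 8270 (74.3%) were called in the same direction, 416 (3.74%) in the opposite direction and 2441 were not called. The 8270 genes were 65.8% of the genes called with the combination. With the combination 7969 genes (33.2%) had a called difference of at least 1. Of the 6454 genes with a called difference of at least 1, 5165 (80.0%) were called in the same direction and 96 in the opposite one. TBXT, CDH11, ME1 and PDGFRA had differences of 12.44, 12.67, 11.13 and -11.72 with the combination, and for none of the 4 was the change from vehicle called.

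Some large differences were not the same in the 2 sets of libraries. The difference between the vehicle and combination values was itself called for 4579 genes (19.1%). CCND2 had 42.8 and 29.6 normalised reads in the H460 combination libraries and 5666 and 6980 in those of H1703, and its vehicle difference minus its combination difference was -5.75. For MYC this value was 1.40 ± 0.16 (SE), since the difference was 1.15 in vehicle and -0.25 with the combination. For mitochondrially encoded mRNAs the median moved from -0.52 to 0.65, and the value for MT-CYB was -1.35. The MHC class I list moved from -0.90 to 0.055. The NRF2 list, with medians of 1.86 and 2.13, and HOXC10, with differences of -4.89 and -5.38, had the same direction in both sets.

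**Figure D5:**
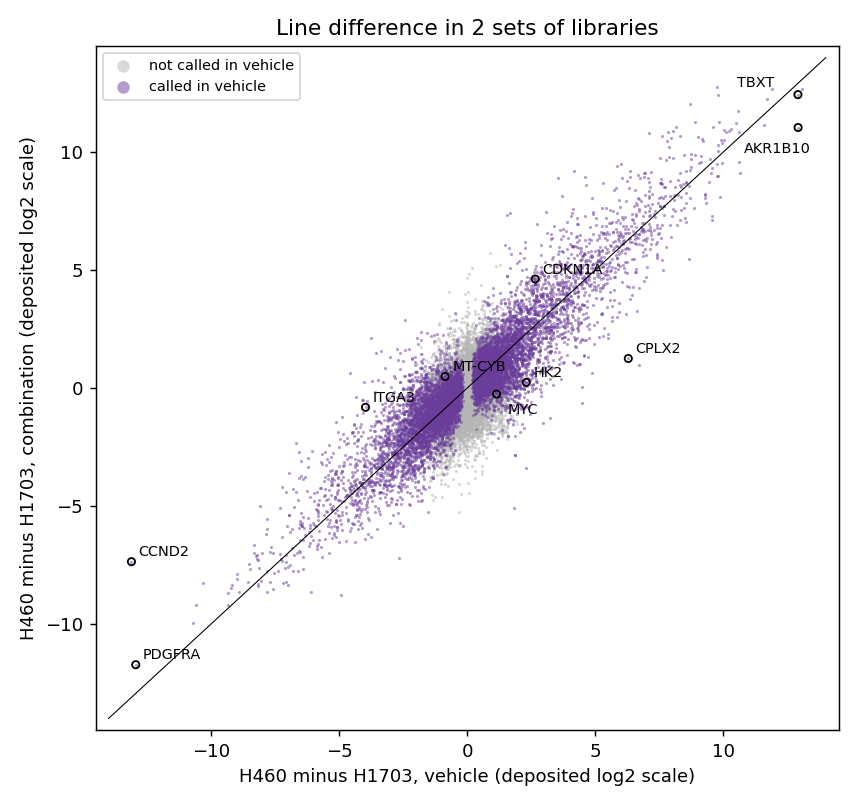
Line difference of each tested gene with the combination (vertical axis) against that in vehicle (horizontal axis), both H460 minus H1703 on the deposited log2 scale, with the line of equal values. Purple points are the 11127 genes called in vehicle; CCND2, MYC, CPLX2, HK2, ITGA3, MT-CYB and CDKN1A lie off the line, PDGFRA and TBXT close to it.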

How the data were processed

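Per the labels' protocols, a NucleoSpin RNA kit and a SMARTer Stranded Total RNA kit were used. The tools in the submitters' processing notes are Trimmomatic, STAR and featureCounts, without versions, and the build is hg38 (GRCh38). The authors deposited variance-stabilised counts on a log2 scale for 28951 genes, in which 0.480538 is 0 reads and the highest value is 21.1. Whole reads were recovered within 0.02 for 100% of values. All 16 libraries held 8493271 to 13604150 reads, so genes of few reads have wide counting error, and intervals (exact Clopper-Pearson) cover only that error.

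Differences, SEs and Benjamini-Hochberg adjusted p (threshold 0.05) came from limma 3.58.1 in R 4.3.3, fitted to 8 group means over 16 libraries with trend and robust settings. Tested genes had a mean at least 1 above the lowest value (23968 genes; 4983 were left out). Positions and gene types came from GENCODE 29, matched for 28846 IDs, and promoters from RefSeq. Symbols came from a separate source of gene names for 28782 IDs, and otherwise from GENCODE 29. Plots and tables used Python 3.11.15, numpy 2.4.6, pandas 2.3.3, scipy 1.17.1 and matplotlib 3.10.9. The fit was tested on simulated reads, with 50 genes changed at each fold. It called 24% of genes changed 1.5-fold, 76% of those changed 2-fold and 100% of those changed 3-fold. Of 23600 unchanged genes it called 0.038%. The simulated spread was set and not estimated from these libraries, and genes of few reads were not among those changed. A gene not called may thus still differ. Alternatives were limma voom on the recovered reads, other filters and scalings, other sets of libraries in the fit, a replicate block and leaving out each library.

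The comparison and its 46 gene lists were chosen with earlier results of these data known. Named genes were the 14 protein-coding genes with the largest called differences in each direction, up to 5 called members of each list, a few genes of interest to the study or the lines, and up to 3 genes of each extreme window. Outside this rule, list members not called, members of opposite direction and members set beside a named gene were chosen after their values were seen; these include HMOX1, FTH1, SQSTM1, PGD, TXNRD1, AKR1C1, AKR1C2, TWIST1, CDH2, COL6A1, COL6A2, EPCAM and TP63. A few genes that the naming rule picks are not reported here. Single-agent libraries were not analysed here.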

Additional observations from a re-analysis of the deposited data

Results flagged for a closer look

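The line difference was not the same in vehicle and with the combination for 4579 of the tested genes (19.1%), by the limma test of that difference. For the genes named above that passed, the vehicle difference minus the combination difference is given on the log2 scale, and no explanation was tested. The values of EPCAM, CDH1 and NKX2-1 given below rest on few reads. These genes had at most 9.11 normalised reads in any vehicle or combination library of H460 and H1703. Among drug targets the vehicle difference minus the combination difference was 1.40 for MYC and -1.14 for HDAC5. Among cell cycle genes it was -5.75 for CCND2, -1.97 for CDKN1A, -0.92 for CDKN2A, -1.20 for CDKN2B-AS1, -0.51 for MTAP and -1.20 for FOXM1.

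For genes of the NRF2 list it was 1.88 for AKR1B10, 1.53 for AKR1C3, -0.92 for PGD, -1.29 for TXNRD1, -0.89 for GCLM, 1.07 for SQSTM1 and -0.86 for PIR, and it was -1.14 for MGST1. In metabolism it was 2.16 for SLC2A1, 2.07 for HK2, -1.44 for LDHA, -1.47 for CPS1, -2.14 for PSPH, -1.35 for MT-CYB, -0.73 for ATP5MC3 and 1.70 for SDHA.

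Epithelial, adhesion and matrix genes gave -0.74 for KRT18, -1.03 for CDH1, -2.76 for OCLN, 2.34 for EPCAM, -2.17 for NID2, -1.36 for COL6A1, -1.05 for COL6A2, -3.15 for ITGA3, -2.85 for ITGB8, -2.03 for PCDH10 and -0.995 for CAV1. Signalling, immune and developmental genes gave 0.92 for PDGFC, 1.71 for ETV4, -2.41 for HLA-B, -2.54 for PSMB9, -1.12 for IRF1, -2.02 for OAS1, -1.47 for CXCL5, 1.26 for CXCL1, -2.98 for CXCL8, 1.32 for HOXB7, 2.79 for MEST, -2.33 for NKX2-1, 5.04 for CPLX2, 0.90 for PLBD1 and -2.83 for GPRC5A.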

How the results depend on the processing

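The count of 11127 genes stayed within 1.5 times under every alternative run. It was 11880 with voom on the recovered reads, 9358 with a stricter filter, 11771 with none, 11014 and 11169 with median centring and quantile normalisation, 10726 with only the 4 libraries fitted, and 9274 to 9682 with 1 library left out, where the lone library of a line is assumed to vary like the other groups. Genes called in the same direction as there numbered 9075 to 11042 over all alternatives. The count of 12574 with the combination ranged from 10174 to 13618 over the alternatives run on it. Median centring moved the median difference by -0.035 and quantile normalisation by -0.058, and calls higher in H460 were 48.5 and 46.7% of the total against 50.6%. Of 264 genes examined singly, 255 were called, 14 lost the call under at least 1 alternative and 1, VIM, gained it. TXNRD1 reversed, to -0.40 with quantile normalisation, and the cause was not tested. Libraries of the same replicate number did not deviate together (correlation -0.022), so they were not treated as paired; with the replicate block 11154 genes were called. At this depth 0 reads cannot be told from a few transcripts, so bounds for genes without reads are limits of counting.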

Other observations

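Non-coding genes also held transcripts read in only 1 line. Those given here are some of the genes with the largest differences, and not strictly the largest. LINC00824, for example, had a larger difference (10.51), with 1888 and 2181 normalised reads in H460 and 0 in H1703. LINC00602, on chromosome 6, had 603 and 545 normalised reads in H460 and 0 in both H1703 libraries, at least 467-fold higher in H460. LINC00632 on the X chromosome had 382 and 513 in H460 and 0 in H1703, at least 372-fold higher. In the vehicle libraries of HCC827 and H441, LINC00602 had 0 reads and LINC00632 had 0 and 1.01 and 0 and 1.09 normalised reads. In the other direction, SFTA1P, a pseudogene of a surfactant-associated gene, had 0.978 and 0 in H460 and 652 and 666 in H1703. MIR137HG, the host gene of the neuronal microRNA miR-137, had 0.978 and 0.787 in H460 and 405 and 397 in H1703.

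Some of these genes lie beside coding genes of the same direction. CCND2-AS1 had 0 reads in H460 and 163 and 132 normalised reads in H1703, and MAGEA4-AS1 had 0 against 190 and 187. THY1-AS1 had 0 and 2.36 in H460 and 604 and 553 in H1703. Their reads and those of CCND2, MAGEA4 and THY1 can be told apart only if counting used strand, which was not tested.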
